A study of Sus scrofa with 8 samples.

Results

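The genes described here are 10 genes of iron storage, transport and hormonal control, namely HAMP, TFRC, TFR2, FTH1, FTL, SLC40A1, SLC11A1, SLC11A2, HJV and BMP6. They were chosen by symbol, with earlier results of these data known, out of 18103 genes in the expression table. All 10 were found, 9 of them under these symbols and HJV under its older symbol HFE2. All 10 passed the expression filter, a level of 0.3 FPKM or more in 4 or more libraries, as did 13175 genes in all. FPKM is the number of fragments divided by transcript length and by the mapped fragments of the library, so that levels of different genes can be compared per length.

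Hepatic RNA of male Landrace x Large White pigs was measured by RNAseq in 8 libraries, each a pool of RNA from 2 pigs, with 4 pools in each group. In the initial state the pigs were 4 months old, healthy, and had not yet received the steatotic diet. The steatosis group was the same kind of pools from these animals at 6 months of age, after 2 months on a diet rich in saturated fat, fructose, cholesterol and cholate and poor in methionine and choline. The initial livers were sampled by surgical biopsy and the steatotic livers after euthanasia, both after fasting, so that diet, age and sampling cannot be told apart.

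Hepatocytes secrete hepcidin, a peptide hormone that binds the iron exporter ferroportin and has it degraded, which keeps iron inside macrophages, enterocytes and hepatocytes. Sinusoidal endothelial cells signal iron load to hepatocytes through bone morphogenetic proteins (BMP), which act on hepcidin through SMAD proteins. Iron that is not exported or used is stored in ferritin, a shell of heavy and light chains, and the liver is the main store of the body, both in hepatocytes and in macrophages that recycle red cells.

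All 10 hepatocyte markers were found in all libraries, with a summed level of 58797 to 90260 FPKM in the initial state and 50202 to 60330 FPKM in steatosis. Relative to the deepest library, the depth of the others was 93.2% or more. In pool 1 of the initial state 7 skeletal muscle markers summed to 2626 FPKM, against 5.58 to 22.0 FPKM in the other 7 pools. The marker DES, at 5.54 to 6.76 FPKM in the pools of steatosis, made up most of the sums there. Over all tested genes the median log2 fold change was 0.25, so a gene with no shift of its own relative to the others lies near that value.

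Of the 10 iron genes, SLC11A1 was differentially expressed and higher in steatosis, at limits of 0.01 for limma's adjusted p and 1 for the size of the log2 fold change. Among all tested genes 6.01% were higher and 0.334% lower by these limits. With an adjusted p under 0.05 and any size of change, SLC11A1 and FTL rose, 2 of 10 genes against a background of 26.7%, and 0 of 10 fell against a background of 2.28%. The same 2 genes were those with a p under 0.05 before adjustment in limma. After scaling by the median ratio, described with TFR2 below, SLC11A1 was still differentially expressed, where 3.11% of all tested genes were higher and 0.641% lower. The median log2 fold change of the 10 genes was 0.14, and 3 of them lay above the median of all tested genes. The counts of the 10 genes were thus near the background, and the hepcidin gene HAMP had nearly equal means in both groups.

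**Figure D1:**
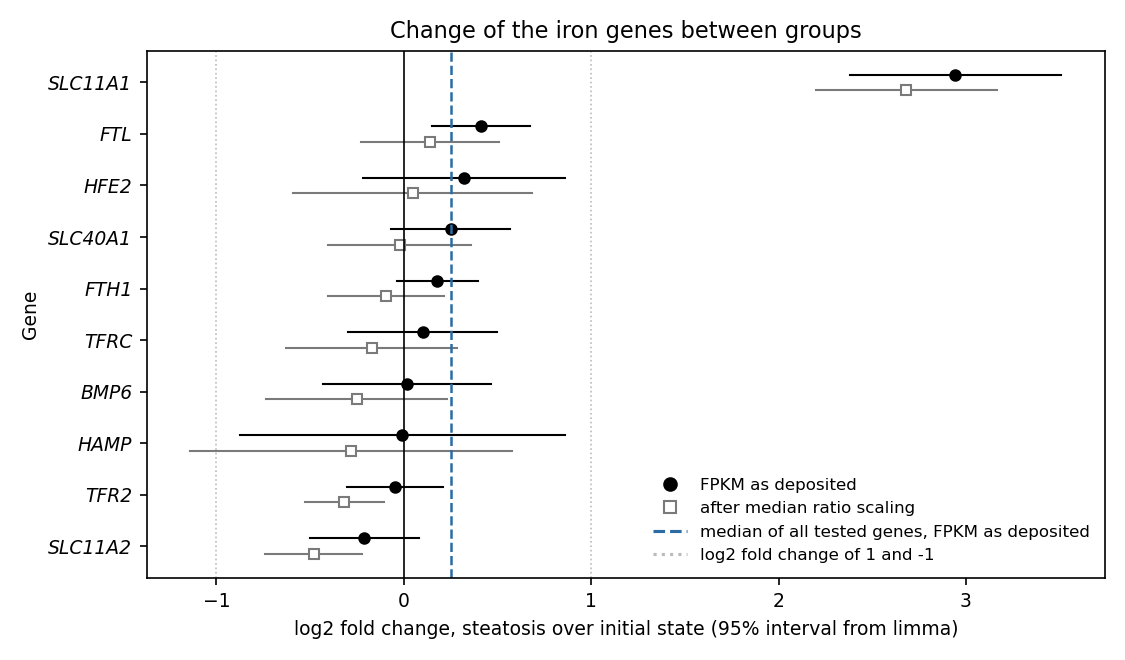
Log2 fold change of the 10 iron genes in steatosis over the initial state, with 95% intervals from limma and the median of all tested genes as a reference line at 0.25. SLC11A1 stands apart at 2.94, FTL lies at 0.41, and the intervals of the other 8 genes include 0.

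The levels spanned orders of magnitude and were led by the storage proteins. In the initial state the order per length was FTL, FTH1, HAMP, SLC40A1, TFR2, HJV, TFRC, SLC11A2, BMP6 and SLC11A1. The ranges of the pools overlapped between the neighbours FTL and FTH1, SLC40A1 and TFR2, HJV and TFRC, and SLC11A2 and BMP6. In steatosis the order was unchanged except that SLC11A1 moved from last to the place above SLC11A2 and BMP6. Among neighbours, the ranges then overlapped between SLC11A2 and BMP6 alone.

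**Figure D2:**
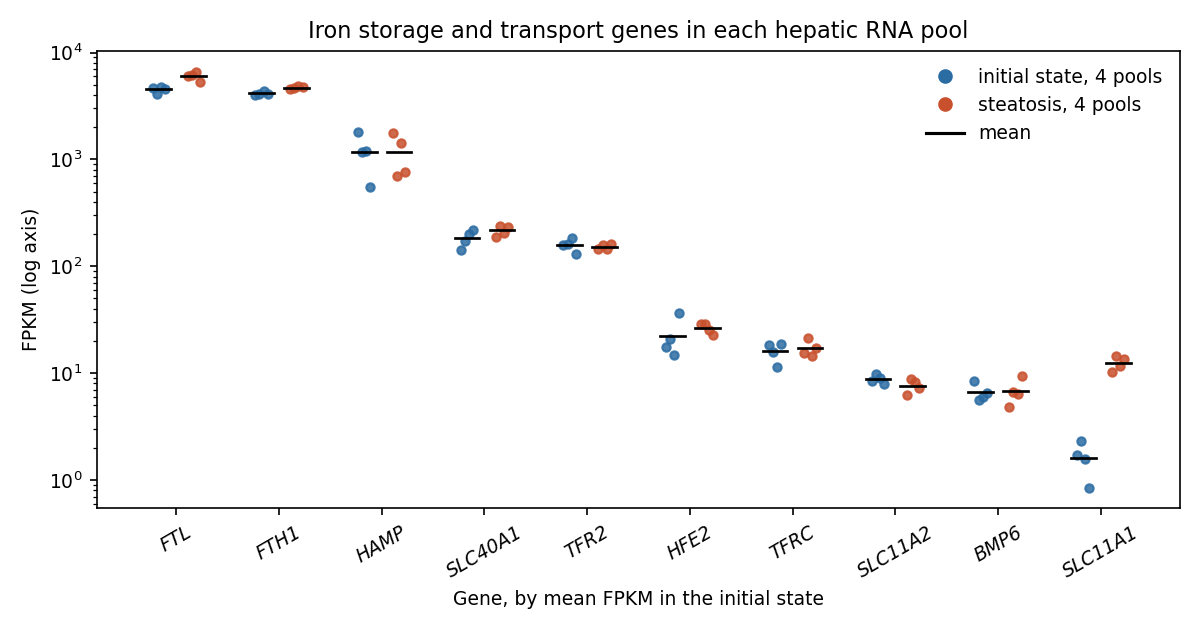
FPKM of the 10 iron genes in each pool on a log axis, with the pools of the initial state and of steatosis side by side. The ferritin chains lie between 4019 and 6635 FPKM, and SLC11A1 lies at 0.85 to 2.30 FPKM in the initial state and at 10.2 to 14.3 FPKM in steatosis.

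HAMP encodes hepcidin, lies at chr6:44785863-44787303 of Sscrofa11.1 and was the most variable of the abundant iron genes. Its level in pools 1, 2, 3 and 4 of the initial state was 1790.1, 1168, 1191 and 549.8 FPKM, and in the pools of steatosis 1765, 704, 1430 and 754 FPKM. The groups overlapped over nearly their whole range, and pool 1 was the highest in both. The means were 1175 ± 506 FPKM in the initial state and 1163 ± 520 FPKM in steatosis (SD, n = 4). The log2 fold change was -0.01 (SE 0.39, adjusted p = 0.991, limma). The 95% interval of the fold reached from 0.546 to 1.81, so changes within these limits were not excluded. When limma treated pools of equal number as blocks, a pairing the authors do not state, the SE was 0.19. The 95% interval of the log2 fold change was then narrower, from -0.44 to 0.43. The coefficient of variation of HAMP was 43.1% in the initial state and 44.7% in steatosis, against medians of 13.3% and 8.82% for the 4246 tested genes with a mean of at least 10 FPKM. Between pools of the same number the log2 ratio of steatosis to the initial state was -0.02, -0.73, 0.26 and 0.46 in pools 1 to 4, with no common direction.

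BMP6 encodes the BMP ligand of endothelial cells that raises hepcidin, and lies at chr7:5058817-5208868. Its level was 8.38, 5.55, 5.99 and 6.57 FPKM in pools 1 to 4 of the initial state and 4.83, 6.60, 6.39 and 9.44 FPKM in steatosis. Pool 1 had the highest initial level and the lowest level in steatosis, and the groups overlapped. The log2 fold change was 0.02 (SE 0.20, adjusted p = 0.954, limma). The summed markers of the sinusoidal endothelium were 162 to 204 FPKM in the initial state and 228 to 241 FPKM in steatosis. Of these 10 markers 3 were higher at an adjusted p under 0.05, a share near the 26.7% of all tested genes.

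HJV encodes hemojuvelin, the BMP co-receptor of hepatocytes, at chr4:99327989-99332647. Its level was 17.7, 20.8, 14.7 and 36.6 FPKM in the initial state and 28.9, 28.8, 25.5 and 22.7 FPKM in steatosis. The steatosis pools lay above pools 1 to 3 of the initial state but below pool 4, so that this pool set the overlap of the groups. With all libraries the log2 fold change was 0.32 (SE 0.24, adjusted p = 0.343, limma). Without pool 4 of the initial state it was 0.58 (adjusted p = 0.017, limma).

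TFR2, which senses transferrin-bound iron on hepatocytes, lies at chr3:8539316-8553993. Its level was 159, 163, 184 and 129 FPKM in the initial state and 144, 159, 146 and 163 FPKM in steatosis. The groups overlapped, and the steatosis pools lay within the range of the initial state. The log2 fold change was -0.05 (SE 0.11, adjusted p = 0.788, limma). When the values of a library were divided by the median, over genes, of their ratio to the mean of all libraries, it was -0.32 (adjusted p = 0.0405, limma). This was a fall relative to most genes, and by this scaling 9.85% of all tested genes were lower at an adjusted p under 0.05.

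The uptake genes of transferrin-bound iron and of divalent metals did not pass the test. TFRC, the receptor for iron-loaded transferrin in most cells, lies at chr13:133976765-133997554. Its level was 18.2, 15.7, 11.4 and 18.9 FPKM in the initial state and 15.5, 21.2, 14.5 and 17.03 FPKM in steatosis. The groups overlapped, and the log2 fold change was 0.10 (SE 0.18, adjusted p = 0.698, limma). TFRC is known to be high in dividing and in erythroid cells. Of 10 proliferation markers 9 were differentially expressed and higher, against 6.01% of all tested genes. Their sums were 15.7 to 21.0 FPKM in the initial state and 38.6 to 41.5 FPKM in steatosis. The 9 erythroid markers summed to 317 to 1809 FPKM in the initial state and to 179 to 583 FPKM in steatosis. The part of either cell population in the level of TFRC was not tested.

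SLC11A2 encodes DMT1, which carries ferrous iron across the membranes of endosomes and of the gut epithelium. It was at 8.40, 9.92, 9.05 and 7.92 FPKM in pools 1 to 4 of the initial state and at 6.25, 8.73, 8.33 and 7.28 FPKM in steatosis. It was lower in steatosis in each pool number, by 0.12 to 0.42 on the log2 scale, but the groups overlapped. The log2 fold change was -0.21 (SE 0.13, adjusted p = 0.244, limma). Relative to most genes, after scaling by the median ratio, it fell by 0.48 on the log2 scale (adjusted p = 0.0182, limma). By that scaling 9.85% of all tested genes were lower at an adjusted p under 0.05. No position is given for SLC11A2, which the annotation places on no chromosome.

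SLC11A1 encodes NRAMP1, which carries divalent metals out of the phagosomes of macrophages, and lies at chr15:120434100-120446396. Its level was 1.70, 2.30, 1.57 and 0.85 FPKM in pools 1 to 4 of the initial state and 10.2, 14.3, 11.8 and 13.6 FPKM in steatosis. The lowest pool of steatosis was well above the highest pool of the initial state. The mean rose from 1.61 ± 0.595 to 12.5 ± 1.88 FPKM (SD, n = 4). On the log2 scale the change was 2.94 (SE 0.25, adjusted p = 7e-05, limma), or 7.69-fold with a 95% interval of 5.20 to 11.4. A larger log2 fold change was seen for 0.304% of the tested genes. The exact permutation test of the mean FPKM gave p = 0.0286 (two-sided), the smallest value that 4 pools against 4 allow. The log2 ratio was 2.51, 2.59, 2.83 and 3.85 in pools 1 to 4, and leaving out any single library left the log2 fold change between 2.69 and 3.13.

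Markers of macrophages, in which SLC11A1 is chiefly expressed, were also higher. Of 11 tested markers 9 were higher at an adjusted p under 0.05, against 26.7% of all tested genes. The summed level of the 11 was 920 to 1181 FPKM in the initial state and 1389 to 1612 FPKM in steatosis. The scavenger receptor MARCO had a log2 fold change of 3.33 and was the 1 marker of 11 with a larger change than SLC11A1. This place depends on the list, which lacks CD68, a macrophage gene for which the authors report a larger log2 fold change. The adaptor TYROBP followed with 1.44, while CD14 (-0.19, adjusted p = 0.186, limma) and the complement component C1QA (0.07, adjusted p = 0.73, limma) did not pass the test. In percent of the summed macrophage markers SLC11A1 was at 0.157 ± 0.0626 in the initial state and at 0.860 ± 0.128 in steatosis (SD, n = 4), and the ranges of 0.0720 to 0.218 and 0.721 to 1.03 did not overlap. Most of this sum comes from C1QA, C1QB, C1QC and CD14, with means of 200, 293, 227 and 204 of 1044 FPKM in the initial state. The percentage thus compares SLC11A1 mainly with these genes. In bulk tissue, more cells of a type and more RNA per cell cannot be told apart. The ratio of SLC11A1 to the related importer SLC11A2 was 0.107 to 0.232 in the initial state and 1.41 to 1.87 in steatosis. The genes with the profile most like that of SLC11A1 over the 8 libraries were PADI2, SLC6A6 and ACVRL1, with root mean square differences of 0.305, 0.313 and 0.341 on the log2 scale after centring each gene on its own mean.

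**Figure D3:**
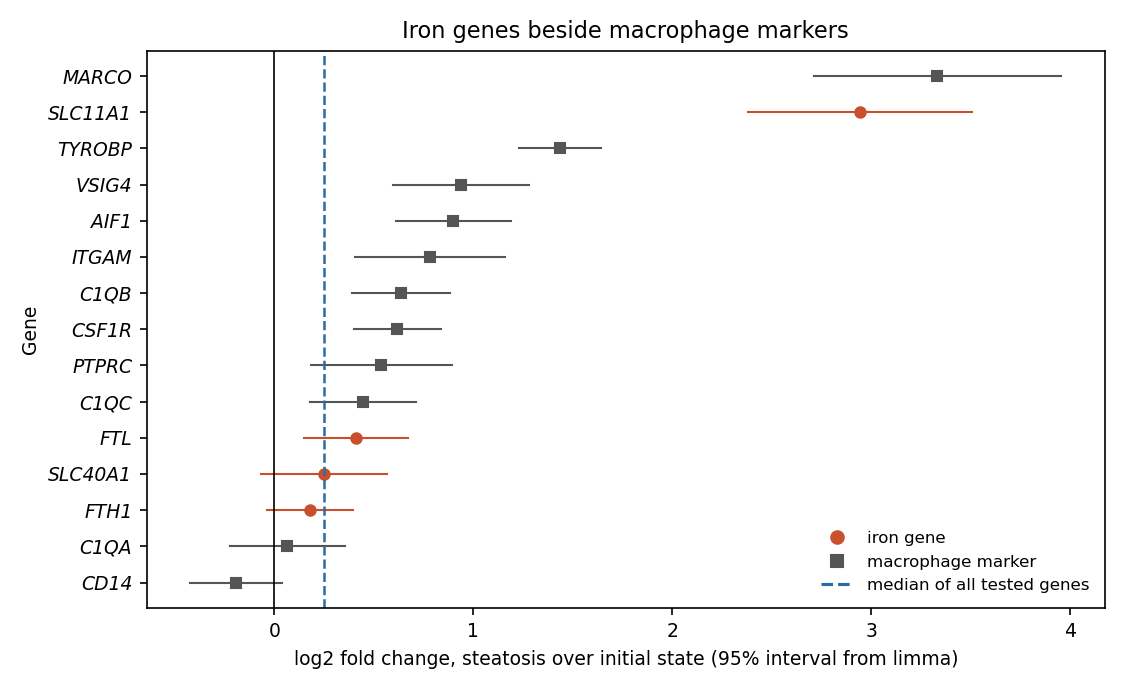
Log2 fold change with 95% intervals from limma of 4 iron genes that macrophages express (circles) beside 11 macrophage markers (squares), with the median of all tested genes as a dashed line. SLC11A1 at 2.94 lies between MARCO at 3.33 and TYROBP at 1.44, and SLC40A1, FTH1 and FTL lie below 9 of the 11 markers.

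SLC40A1 encodes ferroportin, the only known iron exporter of mammalian cells, at chr15:94140635-94161793. Its level was 142, 173, 201 and 217 FPKM in the initial state and 187, 239, 205 and 235 FPKM in steatosis. It was higher in steatosis in each pool number, by 0.02 to 0.47 on the log2 scale, but the groups overlapped. The log2 fold change was 0.25 (SE 0.14, adjusted p = 0.21, limma), which is equal to the median of all tested genes. As a percentage of the summed macrophage markers, ferroportin RNA was at 17.5 ± 1.91 in the initial state and 14.9 ± 1.64 in steatosis (SD, n = 4). The ranges of 15.5 to 19.7 and 13.3 to 17.2 overlapped, and the difference was not tested. Here too C1QA, C1QB, C1QC and CD14 make up most of the sum.

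The ferritin genes were the most abundant of the 10 and varied little between pools. FTL, the light chain that promotes the mineral core, lies at chr6:54231121-54232756. It was at 4668, 4107, 4738 and 4556 FPKM in the initial state and at 6070.1, 6127, 6635 and 5251 FPKM in steatosis. All pools of steatosis lay above all pools of the initial state. FTL rose by 0.41 on the log2 scale (SE 0.12, adjusted p = 0.0262, limma), or 1.33-fold with a 95% interval of 1.11 to 1.59, from 4517 ± 284 to 6021 ± 573 FPKM (SD, n = 4). After scaling by the median ratio the log2 fold change was 0.14 (adjusted p = 0.583, limma), so that FTL did not pass relative to most genes. The call was also lost without pool 2 of the initial state (adjusted p = 0.0687) and without pool 1, 2 or 3 of steatosis (adjusted p = 0.0543, 0.0544 and 0.0776, limma).

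FTH1, the heavy chain with ferroxidase activity, lies at chr2:9535051-9537979. It was at 4019, 4097, 4374 and 4099 FPKM in the initial state and at 4595, 4611, 4819 and 4735 FPKM in steatosis. The groups did not overlap, and the exact permutation test gave p = 0.0286 (two-sided). The log2 ratio was 0.14 to 0.21 in the 4 pool numbers. In limma, which takes the spread of genes of like level into account, the log2 fold change of 0.18 did not pass (SE 0.10, adjusted p = 0.192), and it was below the median of all tested genes. SLC11A1, FTL and FTH1 were the 3 of 10 genes whose groups did not overlap, against 32.1% of all tested genes. The gene with the profile most like FTH1 was RPSA, a ribosomal protein gene, with a root mean square difference of 0.022 on the log2 scale over the 8 libraries.

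**Figure D4:**
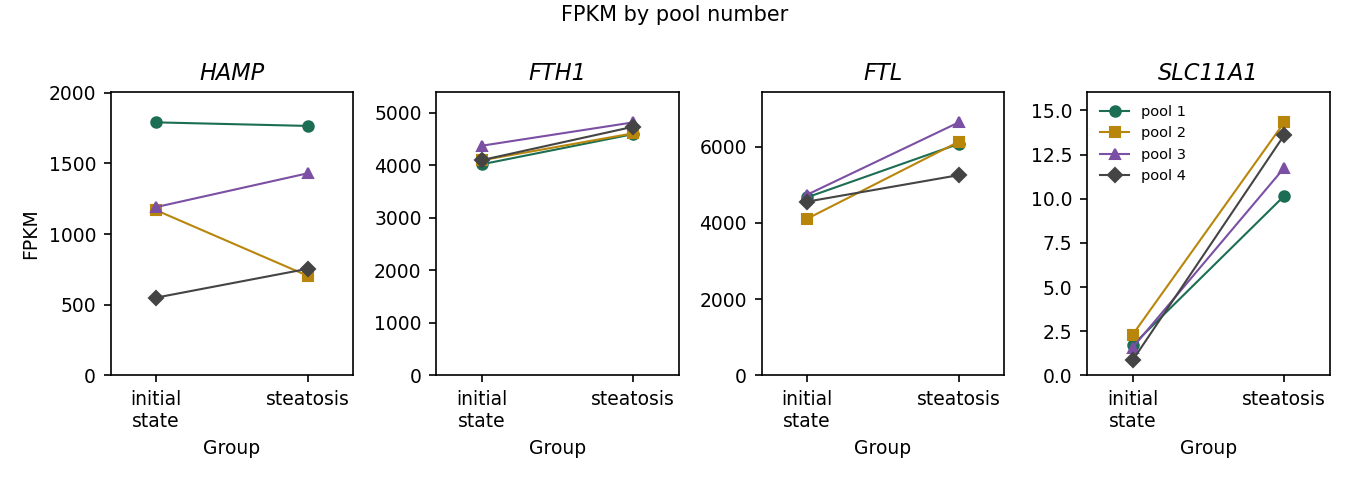
FPKM of HAMP, FTH1, FTL and SLC11A1 in the initial state and in steatosis, with a line joining pools of the same number and each axis starting at 0. The lines of FTH1, FTL and SLC11A1 all go up, while those of HAMP go from 1168 to 704 FPKM in pool 2 and from 549.8 to 754 FPKM in pool 4.

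The ratio of heavy to light chain tells tissues apart, with more light chain in iron-storing liver. The ratio of FTH1 to FTL was 0.861, 0.998, 0.923 and 0.900 in the initial state and 0.757, 0.752, 0.726 and 0.902 in steatosis. Pool 4 of steatosis lay within the initial range, and the other 3 lay below it. The mean was 0.920 ± 0.0575 and 0.784 ± 0.0795 (SD, n = 4), a log2 difference of -0.23 with an exact permutation p of 0.0857 (two-sided). The chains together made up 1.59% to 1.69% of all FPKM in the initial state and 1.91% to 2.16% in steatosis. Ferritin genes have processed copies in mammalian genomes, and how the estimation shared reads between such copies was not analysed here.

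The wider iron pathway was described with 60 further genes, of which 59 were in the table and 54 passed the filter. Of these 54, 4 were differentially expressed and higher and 0 lower, against 6.01% and 0.334% of all tested genes. Without pool 1 of the initial state, the pool with muscle transcripts, 2 were higher. Without any other single library, 3 to 5 were higher. With an adjusted p under 0.05, 16 rose and 4 fell, against the backgrounds of 26.7% and 2.28%. Their median log2 fold change was 0.17. After scaling by the median ratio 8 were higher and 11 lower, with backgrounds of 11.6% and 9.85%, so the split between rises and falls depended on the scaling.

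**Figure D5:**
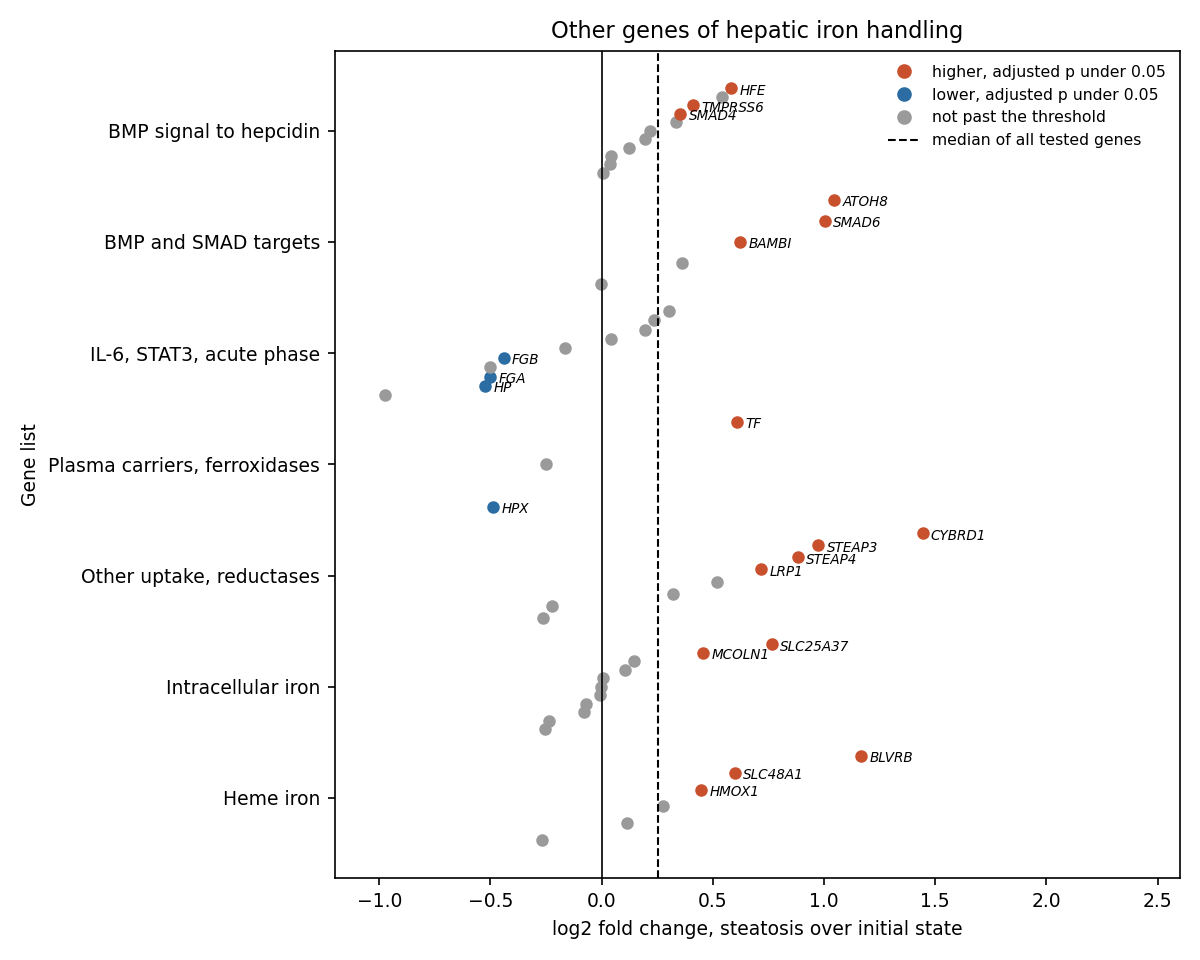
Log2 fold change of the 54 tested genes of the wider iron pathway in steatosis over the initial state, by gene list, with the median of all tested genes as a dashed line. CYBRD1 at 1.44 and BLVRB at 1.17 lie farthest to the right, and the 4 genes that fell (HP, FGA, HPX and FGB) lie between -0.52 and -0.44.

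Among the regulators of the BMP signal to hepcidin 3 of 11 passed the test, all higher, a share near the 26.7% of all tested genes that were higher at this limit. HFE, the hereditary haemochromatosis protein, rose from 6.71 ± 0.465 to 10.2 ± 2.03 FPKM (SD, n = 4), or by 0.58 on the log2 scale (adjusted p = 0.0174, limma). TMPRSS6, the hepatocyte protease that cleaves hemojuvelin and so restrains hepcidin, rose by 0.41 on the log2 scale (adjusted p = 0.0239, limma). SMAD4, the shared mediator of SMAD signals, rose by 0.35 (adjusted p = 0.0347, limma). None of the 3 passed after scaling by the median ratio, and SMAD4 did not pass with the pool number as a block (adjusted p = 0.0503, limma). Leaving out single libraries also ended these calls, for HFE pool 4 of steatosis (adjusted p = 0.0542, limma), for TMPRSS6 pools 1 and 3 of the initial state and 2 and 4 of steatosis (0.0528 to 0.0713), and for SMAD4 each library except pool 2 of the initial state (0.0535 to 0.0924).

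Of 5 genes known to answer the BMP and SMAD signal, 3 rose at an adjusted p under 0.05, against 26.7% of all tested genes. SMAD6, an inhibitory SMAD, rose from 1.21 ± 0.102 to 2.53 ± 0.275 FPKM (log2 fold change 1.0045, adjusted p = 0.000753, limma, n = 4). The transcription factor ATOH8 rose from 2.21 ± 0.495 to 4.70 ± 1.24 FPKM (1.04, adjusted p = 0.00581, limma, n = 4), and both passed also after scaling by the median ratio at an adjusted p under 0.05. The decoy receptor BAMBI rose by 0.62 on the log2 scale (adjusted p = 0.0153, limma). BAMBI did not pass after scaling by the median ratio (0.37, adjusted p = 0.112) or the upper quartile (0.40, adjusted p = 0.0904), or without pool 3 of steatosis (adjusted p = 0.0501, limma). ID1, also used as a readout of this signal, was at 19.0 ± 5.31 and 18.6 ± 3.44 FPKM (adjusted p = 0.993, limma, n = 4), and SMAD7 had a log2 fold change of 0.36 (adjusted p = 0.12, limma). SMAD6 and ATOH8 are expressed by endothelial cells too, whose summed markers are given above, and the part of these cells in the rise was not tested.

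The list of IL-6, STAT3 and acute phase genes covers the inflammatory route to hepcidin. Of its 10 genes 3 passed the test, all lower, where 2.28% of all tested genes were lower at this limit. The log2 fold changes of the 10 genes went both ways, from -0.97 to 0.30, with a median of -0.30. HP, haptoglobin, which binds free haemoglobin, fell by 0.52 on the log2 scale (adjusted p = 0.0245, limma), from 7229 ± 1029 to 5021 ± 642 FPKM (SD, n = 4). HP did not pass without any one of pools 1 and 4 of the initial state or 1 and 3 of steatosis (adjusted p = 0.0539 to 0.0713, limma). The fibrinogen genes FGA and FGB fell by 0.50 and 0.44 on the log2 scale (adjusted p = 0.00434 and 0.0127, limma). The hepatocyte markers had a lower mean sum in steatosis, but their ranges, given above, overlapped. Of these 10 markers 1 was lower at an adjusted p under 0.05, against 2.28% of all tested genes. It was FGG, also a fibrinogen gene (-0.51, adjusted p = 0.00355, limma). The part of hepatocytes in these falls was not tested.

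Among the plasma carriers, TF and HPX went in opposite directions. TF, transferrin, rose from 2856 ± 409 to 4356 ± 569 FPKM (log2 fold change 0.61, adjusted p = 0.0118, limma, n = 4). Relative to most genes TF did not pass, at 0.34 (adjusted p = 0.243, limma) after scaling by the median ratio and 0.38 (adjusted p = 0.17, limma) by the upper quartile. HPX, hemopexin, which binds free heme, fell from 2679 ± 305 to 1903 ± 113 FPKM (-0.49, adjusted p = 0.0105, limma, n = 4).

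In the list of other uptake genes and ferrireductases, 4 of 8 passed the test, all higher, against 26.7% of all tested genes. CYBRD1, a ferric reductase best known from the duodenum, rose from 4.92 ± 0.767 to 13.9 ± 4.204 FPKM (log2 fold change 1.44, adjusted p = 0.00116, limma, n = 4). STEAP3, the endosomal reductase of the transferrin cycle, rose from 14.7 ± 2.45 to 28.8 ± 2.32 FPKM (0.97, adjusted p = 0.000781, limma, n = 4). STEAP4, another metalloreductase, rose by 0.88 and LRP1, a receptor for heme bound to hemopexin, by 0.72 on the log2 scale (adjusted p = 0.0284 and 0.00953, limma). LRP1, STEAP3 and CYBRD1 remained higher after scaling by the median ratio, and STEAP4 did not pass. SLC39A14 and SLC39A8 of this list did not pass in the main fit (adjusted p = 0.256 and 0.195, limma). After scaling by the median ratio they were lower, at -0.50 and -0.54 (adjusted p = 0.0223 and 0.0211, limma), where 9.85% of all tested genes were lower. The call of STEAP4 also ended without pool 1 of the initial state or without pool 2, 3 or 4 of steatosis (adjusted p = 0.0565 to 0.0758, limma).

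Inside the cell, 2 of 11 genes rose, a share below the background of 26.7%. The mitochondrial iron importer SLC25A37 rose by 0.76 and the lysosomal channel MCOLN1 by 0.46 on the log2 scale (adjusted p = 0.0038 and 0.0277, limma). MCOLN1 did not pass after scaling by the median ratio (0.19, adjusted p = 0.365, limma) or the upper quartile (0.23, adjusted p = 0.277, limma). It also did not pass with the pool number as a block (adjusted p = 0.0515, limma) or without pool 2 of the initial state or pool 2 or 3 of steatosis (0.0605 to 0.0775). The iron regulatory proteins, which set the translation of ferritin and the stability of TFRC mRNA, did not pass the test. ACO1 had a log2 fold change of -0.08 and IREB2 of -0.01 (adjusted p = 0.707 and 0.963, limma).

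Of the 6 genes in the heme iron list, 3 rose at an adjusted p under 0.05, against 26.7% of all tested genes. BLVRB, biliverdin reductase B, rose from 38.9 ± 6.505 to 86.8 ± 4.66 FPKM (log2 fold change 1.17, adjusted p = 0.000153, limma, n = 4). HMOX1, heme oxygenase 1, rose by 0.45 and the heme transporter SLC48A1 by 0.60 on the log2 scale (adjusted p = 0.0277 and 0.00468, limma). After scaling by the median ratio BLVRB and SLC48A1 passed and HMOX1 did not. HMOX1 also did not pass when any single library other than pool 2 of the initial state or pool 3 of steatosis was left out (adjusted p = 0.0524 to 0.0787, limma). Macrophages express these genes as well, and the part of the higher macrophage markers in their rise was not tested.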

How the data were processed

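RNA of 2 pigs was combined in each of 8 pools and sequenced in paired-end mode. The authors mapped reads with HISAT2 2.0.4 to Sus scrofa 11.1, assembled transcripts with StringTie and estimated expression with Bowtie2 2.2.5 and RSEM 1.2.12. The authors deposited FPKM values and state no scaling between libraries, and the deposited values were used unscaled. The authors also deposited comparisons of single pools by a Poisson method, which hold their own fold changes and were not used. Read counts were not used here. The SD and the p values therefore measure the spread between pools of 2 pigs. Relative depth was read from the spacing of the lowest FPKM values in genes with a length of 400 to 600 bp.

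The 13175 genes that reached 0.3 FPKM in 4 or more libraries entered a fit by limma 3.58.1 (R 4.3.3) to log2(FPKM + 0.1), using a mean-variance trend and Benjamini-Hochberg adjustment over all of them, so that fold changes of low genes are understated. For single values an exact permutation test, two-sided, was used. The fit was tested on simulated data. Other tables and plots used Python 3.11.15, numpy 2.4.6, pandas 2.3.3, scipy 1.17.1 and matplotlib 3.10.9. Coordinates are those of RefSeq genes of Sscrofa11.1, matched by gene ID.

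Genes and lists were chosen with earlier results of these data known. Named were all 10 genes, each gene of a pathway list with an adjusted p under 0.05, the genes of most similar profile, and markers beside a result. ID1, SMAD7, ACO1, IREB2, SLC39A14 and SLC39A8 were named after their values were seen. Pools of the same number were treated as pairs in the log2 ratios by pool number, the block fit and the paired permutation test. This was done since both groups are the same animals. Deviations from the group means correlated at 0.163, 0.35, 0.317 and 0.247 between pools 1 to 4 of both groups. No source states the pairing itself. In the main limma fit the groups were compared without pairs. Its SE and adjusted p values thus leave the repeated sampling of the same animals out of account. The alternatives were 3 scalings (median ratio, upper quartile, common sum), pseudocounts of 1 and 0.01, no filter, a filter in at least 7 libraries, the pool number as a block, and each library left out in turn.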

Additional observations from a re-analysis of the deposited data

Results flagged for a closer look

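Of 60 groups of 4 pools checked, 1 had a pool far from the others. BLVRB in the initial state was at 48.63 FPKM in pool 4 and at 35.01 to 36.54 FPKM in the other 3 pools, so that the gap took 0.888 of the whole range, beyond the 95% limit of Dixon's test. Chance passes this limit in about 1 of 20 groups. All pools of steatosis lay above pool 4 of the initial state.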

How the results depend on the processing

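SLC11A1 stayed differentially expressed in all 16 alternatives. FTL passed an adjusted p of 0.05 with the pool number as a replicate block (0.0294, log2 fold change 0.41) and lost it under 3 settings and without 4 single libraries. The number of iron genes that rose was 2, and 1 after scaling by the median ratio or upper quartile and without the filter, and between 1 and 3 with a library left out, with HJV as the third gene without pool 4 of the initial state. The number that fell went from 0 to 2 (median ratio) and 1 (upper quartile). Of all tested genes, 1521 of 13101 rose and 1290 fell at an adjusted p under 0.05 after scaling by the median ratio. By the upper quartile 1671 of 13116 rose and 1022 fell. Without the filter 3258 of 18103 rose, and with a library left out between 2324 and 3389 of 13175. At an adjusted p of 0.05, the 1 differentially expressed iron gene became 2. Of the wider pathway, 4 differentially expressed genes became 1, 1 and 2 (median ratio, upper quartile, pseudocount 1), and 16 higher and 4 lower at an adjusted p of 0.05. With a library left out they were between 2, without pool 1 of the initial state, and 5. The 16 higher became 8 and 8, and the 4 lower 11 and 7, under the first 2 scalings, and the lower 2 without the filter. The block gave 15 higher and 4 lower. Reversed values were those near 0 or near the median of all genes. Under median ratio and upper quartile scaling BMP6 was at -0.25 and -0.21, TFRC at -0.17 and -0.13 and FTH1 at -0.10 and -0.057, SLC40A1 was at -0.022 under the median ratio, and HAMP at 0.0019 with a common sum. With a library left out, HAMP lay between -0.33 and 0.23, BMP6 between -0.15 and 0.17, TFR2 between -0.14 and 0.030 and TFRC between -0.055 and 0.19. The log2 difference between groups in the ratio of FTH1 to FTL lay between -0.30 and -0.19. The paired exact permutation test over pool numbers gave p = 0.25, but with 4 pairs this test cannot fall under 0.05. The causes of these differences were not tested. The authors give the depth in reads as a mean and SD for each group, not for each library.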
